A study of Bos taurus with 8 samples.

Results

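Cadherins are calcium-dependent adhesion proteins of the cell surface, and catenins are the cytoplasmic proteins that tie classical cadherins to the actin cytoskeleton. The genes described here were chosen by symbol from the array annotation: the numbered cadherins except CDH5, the protocadherins, the desmocollins and desmogleins, the alpha- and delta-catenins, plakoglobin (JUP) and CTNNBL1. This gave 51 genes of 18087 with a symbol of their own on the array, each represented by its cluster of highest mean signal. CDH5, the cadherin of vascular endothelium, served as a marker of endothelial cells, and beta-catenin (CTNNB1) is described with the other junction partners. CTNNBL1 was kept by its name, although its protein belongs to the splicing machinery and not to junctions.

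The 4 large luteal cell (LLC) samples and 4 small luteal cell (SLC) samples were primary cells from mature, mid-cycle corpora lutea of lactating Holstein cows whose cycles had been synchronized with cloprostenol, a prostaglandin F2alpha analog. The corpora lutea were digested with collagenase, enriched for luteal cells on a Percoll gradient, stained with a Hoechst dye and sorted by FACS, and no unsorted group was included. RNA of each sample was hybridised to an Affymetrix Bovine Gene 1.0 ST array. The labels call the samples of a cell type biological replicates 1 to 4 but do not say which of them share a cow, so the p-values measure the spread between these samples, and their number limits the precision. The signal is a log2 value, in which a difference of 1 is a factor of 2.

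Classical cadherins bind the same cadherin on a neighbouring cell, while their tails hold beta-catenin or plakoglobin, which bind alpha-catenin, and p120-catenin (CTNND1), which keeps the cadherin at the membrane. Type I cadherins include E-cadherin (CDH1) and N-cadherin (CDH2), which granulosa cells of the follicle carry, and type II cadherins such as CDH11 are typical of mesenchymal and neural cells. Desmosomal cadherins tie cells to intermediate filaments through plakoglobin, plakophilins and desmoplakin. Protocadherins are a separate branch, best known from the nervous system.

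The sorted samples carried the markers of their labels. Of 5 genes of large luteal cells or their granulosa lineage, 5 were higher in LLC, and of 4 genes of small luteal cells or their theca lineage, 3 were higher in SLC. These 3 were INSL3, NR2F2 and PDGFRA, and PDGFRA is also counted among the fibroblast genes below. The exception was LHCGR, whose difference of -1.17 did not pass the limma test (adjusted p = 0.0593), with overlapping groups. Of 4 steroidogenic genes 2 were higher in LLC, and their mean signal was 11.27 to 11.33 on the LLC arrays and 10.83 to 10.97 on the SLC arrays. Markers of other cells were also lower in LLC: 9 of 10 fibroblast, 9 of 9 macrophage, 8 of 12 vascular endothelial and 4 of 9 pericyte and smooth muscle genes. Their part in the results was not tested. LLC replicate 4 lay nearest to SLC, at 17.9 on the first principal component of all clusters, against 36.1 to 54.4 for the other LLC arrays and -44.4 to -36.9 for the SLC arrays.

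Of the 51 genes, 14 differed between the cell types at an adjusted p under 0.05 (limma, Benjamini-Hochberg over all clusters), which is 27.5%, against 22.7% of all genes with a symbol. Of these, 5 were higher in LLC (9.8%, against 11.1% of all genes) and 9 were lower in LLC (17.6%, against 11.7%). With the study's filter of a fold above 2 as well, 8 remained (15.7%, against 6.55% of all genes), of which 5 were higher in LLC (9.8%, against 2.86%) and 3 lower in LLC (5.88%, against 3.69%). All LLC arrays lay above all SLC arrays for 5 of the 51 genes (9.8%, against 12.6% of all genes) and below them for 8 (15.7%, against 12.9%). The median difference, LLC minus SLC, was -0.03 over the 51 genes and 0.01 over all genes. In these bulk samples, fewer cells of a type and less RNA per cell cannot be told apart.

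**Figure D1:**
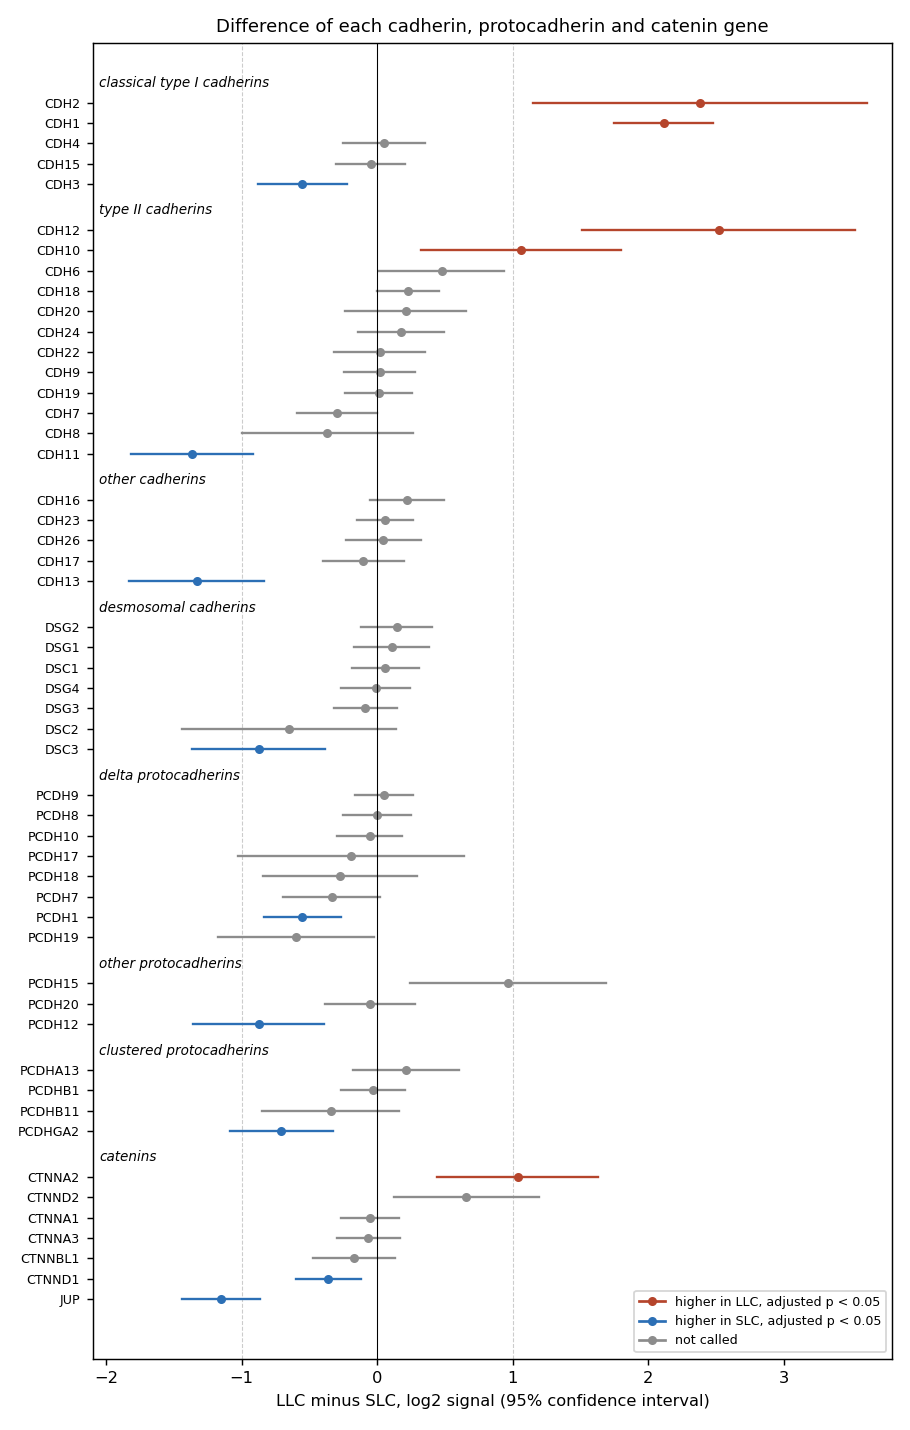
Difference between LLC and SLC for each of the 51 genes, in log2 signal on the horizontal axis, grouped by kind of protein. Points are the fitted LLC minus SLC differences, bars their 95% confidence intervals, dashed lines a fold of 2. The differences run from -1.37 for CDH11 to 2.52 for CDH12, and DSC1 and DSG1 to DSG4 lie near 0.

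Many of the genes gave no signal that could be told from background. The limit for this was set at the 95th percentile of 711 olfactory receptor genes, which was 2.35 in LLC and 2.27 in SLC, and the higher value was used. On all 8 arrays 20 of the 51 genes lay above it (39.2%, against 63% of all genes) and 14 lay below it. Signals of different probes do not share a scale, so levels are compared here only within a gene.

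N-cadherin and E-cadherin were both higher in LLC. CDH2 had signals of 7.97, 7.77, 7.49 and 6.14 in LLC replicates 1 to 4, against 3.82, 4.82, 6.54 and 4.67 in SLC replicates 1 to 4. The groups overlapped, since LLC replicate 4 lay under SLC replicate 3, while the other 3 LLC arrays lay above every SLC array. The difference was 2.38 (SE 0.55, adjusted p = 0.0138), a 5.21-fold higher signal in LLC. It was 2.78 without LLC replicate 4 and 2.91 without SLC replicate 3, and in a test without moderation of the variance its adjusted p was 0.0811, 1 of the 2 alternative settings of 19 in which the call was lost.

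CDH1, the cadherin of epithelia, had 4.37, 4.29, 4.51 and 3.89 in LLC, against 1.86, 2.03, 2.36 and 2.36 in SLC. All LLC arrays stood well apart from all SLC arrays, and the spread was small in both (LLC 4.27 ± 0.27, SLC 2.15 ± 0.25, SD, n = 4 each). The difference was 2.11 (SE 0.16, adjusted p = 7.75e-05), or 4.32-fold, and it passed the filter in 19 of 19 alternative settings. Only 2 of the 4 SLC arrays reached the background limit, by 0.01, so the fold is approximate. With signals held at the limit, the difference was 1.91. Of 7 markers of surface epithelium, 1 was higher in LLC and 1 lower. EPCAM lay at 1.11 in LLC and 1.20 in SLC and KRT19 at 1.80 in LLC and 1.91 in SLC, all under the limit, while KRT8 gave a signal 0.82 higher in LLC (adjusted p = 0.0220). MSLN was lower in LLC by 1.04 (adjusted p = 0.0258), KRT18 differed by -0.43 (adjusted p = 0.117) and KRT7 and UPK3B by 0.04 and 0.06.

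P-cadherin (CDH3), whose gene lies next to CDH1 in the cattle genome, went the other way. Its signals were 3.07, 3.29, 3.13 and 3.16 in LLC, against 3.72, 3.72, 3.34 and 4.08 in SLC. Every LLC array was below every SLC array, by 0.55 on average (SE 0.15, adjusted p = 0.0256), which is under the fold filter, and the call was lost in 7 of 19 alternative settings. The remaining type I genes, CDH4 of retina and brain and CDH15 of muscle, had differences of 0.05 (95% interval -0.26 to 0.35) and -0.05 (-0.30 to 0.20).

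**Figure D2:**
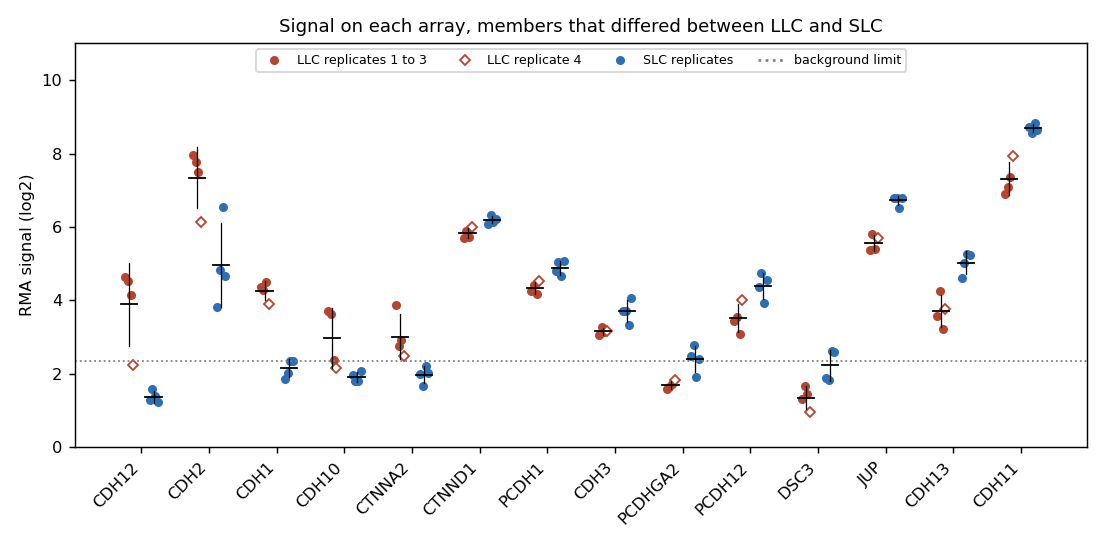
Log2 signal on each array for the 14 genes that differed between LLC and SLC, ordered from the highest to the lowest difference. Circles and open diamonds are single arrays, horizontal lines the means, vertical lines ± SD (n = 4), and the dotted line the background limit of 2.35. LLC replicate 4 (open diamond) is the lowest LLC array for CDH12, CDH2, CDH1, CDH10 and CTNNA2 and the highest for CDH11.

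Among 12 type II cadherins, 2 were higher in LLC and 1 was lower, where 11.1% of all genes were higher and 11.7% lower. CDH12, a cadherin best known from brain, had 4.65, 4.54, 4.15 and 2.23 in LLC, against 1.28, 1.58, 1.41 and 1.23 in SLC. It was at background on all SLC arrays and on LLC replicate 4, and clearly above it on the other 3 LLC arrays. The measured difference was 2.52 (SE 0.45, adjusted p = 0.00393). Since SLC gave only a bound, the signal was at least 2.91-fold higher in LLC. Such bounds set the higher group mean against the limit and carry no interval. With signals held at the limit the difference was 1.57 (adjusted p = 0.106, or 0.02945 with only the members held at it). Without LLC replicate 4 the measured difference was 3.07, and the call was lost in 1 of 19 alternative settings.

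CDH10, also a neural cadherin and the neighbour of CDH12 in the genome, was also uneven among the LLC arrays. It had 3.71, 3.64, 2.39 and 2.17 in LLC, against 1.98, 1.80, 1.81 and 2.08 in SLC. Replicates 1 and 2 of LLC were high, and replicates 3 and 4 were close to the SLC arrays, though still above all of them. The difference was 1.06 (SE 0.33, adjusted p = 0.0483), at least 1.55-fold. It lost its call in 12 of 18 alternative settings, among them leaving out LLC replicate 1 or 2 or any SLC array. With signals held at the limit the difference was 0.67 (adjusted p = 0.340, or 0.175 with only the members held at it). The other genes of this chromosomal run, in the order CDH6, CDH9, CDH10, CDH12 and CDH18, were not called. CDH6 differed by 0.48 (adjusted p = 0.150), CDH18 by 0.23 (adjusted p = 0.165) and CDH9 by 0.02, and the last 2 were under the background limit on all 8 arrays.

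CDH11, a cadherin of mesenchymal cells, was the type II gene lower in LLC. Its signals were 6.89, 7.08, 7.37 and 7.94 in LLC, against 8.73, 8.56, 8.82 and 8.64 in SLC. The SLC arrays lay within a narrow band (8.69 ± 0.11), the LLC arrays were more spread (7.32 ± 0.46, SD, n = 4 each), and no LLC array reached an SLC array. The difference was -1.37 (SE 0.20, adjusted p = 0.00145), or 2.58-fold lower in LLC, past the filter in 19 of 19 alternative settings. Fibroblast markers were also lower in LLC, with a median difference of -2.06 over 10 genes and no gene at background on all arrays. Their mean signal was 6.30 to 7.37 on the LLC arrays and 8.37 to 8.90 in SLC. The small luteal list, which shares PDGFRA with them, had 5.94 to 6.78 on the LLC arrays and 7.90 to 8.30 in SLC. Macrophage, vascular endothelial and pericyte lists were lower in LLC too. The part of these lists in the difference was not tested. CDH8, next to CDH11 in the genome, differed by -0.37 (adjusted p = 0.444). Of the others, CDH7 differed by -0.30 (adjusted p = 0.162), and CDH19, CDH20, CDH22 and CDH24 lay between 0.01 and 0.21.

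T-cadherin (CDH13) lacks the cytoplasmic tail and is anchored in the membrane by a lipid, and it is known from vascular cells. It had 3.57, 4.25, 3.21 and 3.78 in LLC, against 4.60, 5.02, 5.27 and 5.24 in SLC. The groups did not overlap, and the difference was -1.33 (SE 0.22, adjusted p = 0.00281), or 2.51-fold lower in LLC, past the filter in 19 of 19 alternative settings. The endothelial CDH5 was lower in LLC by a similar amount (-1.35, SE 0.35, adjusted p = 0.0217). Vascular endothelial markers as a list had a median of -1.17 over 12 genes. Their mean signals were 4.31 to 5.58 on the LLC arrays and 6.0 to 6.72 on the SLC arrays. Other lists were lower in LLC as well. The fibroblast list had 6.30 to 7.37 on the LLC arrays and 8.37 to 8.90 on the SLC arrays. The part of these lists was not tested. CDH16, CDH17, CDH23 and CDH26, cadherins of kidney, intestine, inner ear and epithelium, differed by -0.10 to 0.22 with adjusted p of 0.269 or above, and CDH23 and CDH26 were under the limit on all 8 arrays.

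Desmosomal cadherins were mostly at background. Of 7 genes, DSC1 and DSG1 to DSG4 lay under the limit on all 8 arrays, with differences of -0.09 to 0.14. DSC2, a desmocollin found beyond stratified epithelia, was the only one above it on all 8. Its signals were 5.68, 5.55, 4.85 and 3.85 in LLC, against 5.45, 5.39, 6.0 and 5.70 in SLC. LLC replicates 1 and 2 lay among the SLC arrays and replicates 3 and 4 below them, and the difference of -0.65 (SE 0.35, 95% interval -1.44 to 0.14) did not pass the test (adjusted p = 0.256). DSC3 was lower in LLC by 0.88 (SE 0.22, adjusted p = 0.0193), with 1.32, 1.68, 1.46 and 0.96 in LLC and 1.88, 1.84, 2.61 and 2.59 in SLC. Only SLC replicates 3 and 4 exceeded the background limit, both group means were under it, and no fold is given. The call was lost in 5 of 18 alternative settings, among them leaving out SLC replicate 3 or 4, and with signals held at the limit the difference was -0.12 (adjusted p = 0.360). In the genome the desmosomal genes form an unbroken run from DSG2 to DSC3 that ends beside CDH2, which was higher in LLC.

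**Figure D3:**
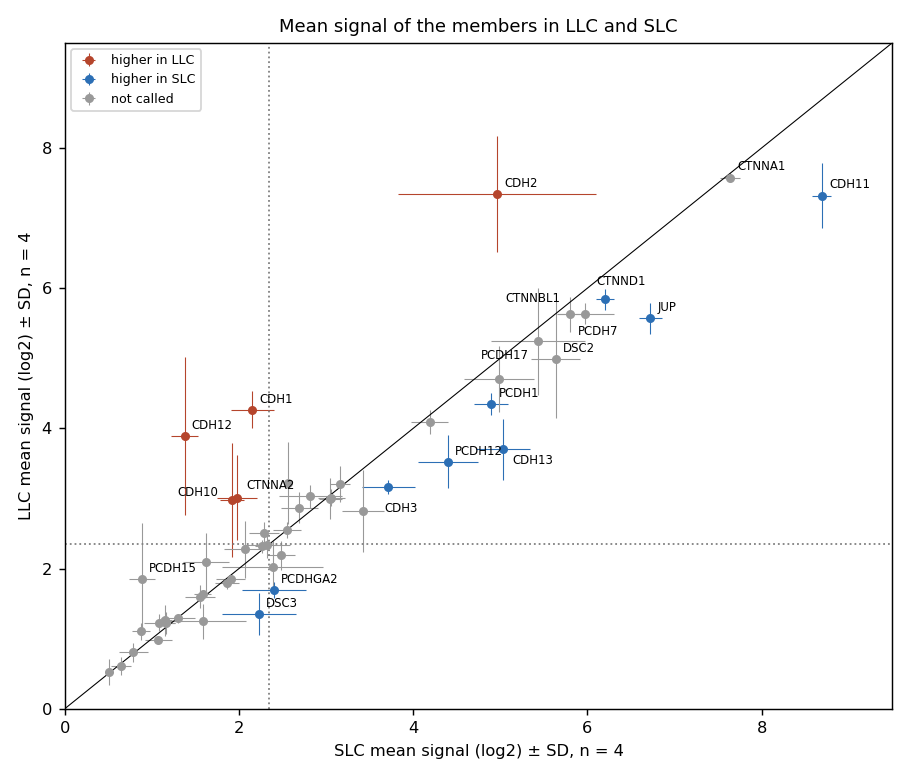
Mean log2 signal of each of the 51 genes in LLC (vertical axis) and SLC (horizontal axis), with bars of ± SD (n = 4 arrays each). The diagonal marks equal signals and the dotted lines the background limit of 2.35. CDH2, CDH1, CDH12, CDH10 and CTNNA2 lie above the diagonal, and CDH10, CDH12, CDH1 and CTNNA2 have SLC means under the limit.

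Of 15 protocadherins, none was higher in LLC at the threshold and 3 were lower, where 11.1% of all genes were higher and 11.7% lower. PCDH1, of the delta group, had 4.26, 4.42, 4.17 and 4.52 in LLC, against 4.80, 5.04, 4.67 and 5.07 in SLC. The groups did not overlap, and the difference of -0.55 (SE 0.13, adjusted p = 0.0131) kept its call in 19 of 19 alternative settings without reaching a fold of 2. PCDH12, which is known from endothelial cells, had 3.45, 3.54, 3.09 and 4.01 in LLC, against 4.36, 4.74, 3.93 and 4.56 in SLC. LLC replicate 4 lay above SLC replicate 3, and the difference was -0.88 (SE 0.22, adjusted p = 0.0181), lost in 4 of 19 alternative settings. The vascular endothelial markers given above were lower in LLC too, as were the fibroblast and macrophage markers, and their part was not tested. PCDHGA2 was lower in LLC by 0.71 (SE 0.17, adjusted p = 0.0156), but it was at background on all LLC arrays (1.59 to 1.84) and on SLC replicate 3 (1.92), and the bound on its fold was at least 1.04. Its call was lost in 3 of 18 alternative settings, and with signals held at the limit the difference was -0.16 (adjusted p = 0.412). Genes of the clustered protocadherins are alike in sequence, so their probes may not tell them apart, and a further 3 clusters with several gamma protocadherin symbols were not used.

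The other 7 delta protocadherins did not pass the test. PCDH17 and PCDH18 had 4.22 to 5.95 and 4.05 to 5.05 in LLC, against 4.85 to 5.94 and 4.38 to 5.22 in SLC, with LLC replicate 3 the lowest array in both. The vascular endothelial list was lowest on the same array (4.31, against 5.37 to 5.58 on the other LLC arrays). So were the lymphatic endothelial (4.58), fibroblast (6.30), pericyte and smooth muscle (4.23) and macrophage (3.32) lists. The part of these lists was not tested. PCDH7 differed by -0.34 (SE 0.16, adjusted p = 0.192) and PCDH19 by -0.60 (SE 0.26, adjusted p = 0.143). For PCDH19 the adjusted p was 0.0188 without LLC replicate 4 and 0.147 to 0.313 with any other array left out. PCDH8, PCDH9 and PCDH10 differed by -0.06 to 0.05.

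PCDH15, which forms tip links of hair cells with CDH23, had 2.83, 1.90, 1.78 and 0.89 in LLC, against 0.89, 0.68, 1.02 and 0.95 in SLC. LLC replicate 1 alone exceeded the background limit, and replicate 4 was among the SLC arrays. The difference of 0.97 (SE 0.33) had an adjusted p of 0.0643, and of 0.00443 without LLC replicate 4. With any other array left out the adjusted p was 0.0983 to 0.147, and with array weights 0.0300. With signals held at the limit the difference was 0.12 (adjusted p = 0.701). PCDH20, PCDHA13, PCDHB1 and PCDHB11 differed by -0.35 to 0.21 with adjusted p of 0.362 or above.

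Among 7 catenin genes, 1 was higher in LLC and 2 were lower, where 11.1% of all genes were higher and 11.7% lower. Plakoglobin (JUP), which serves both adherens junctions and desmosomes, had 5.38, 5.82, 5.39 and 5.69 in LLC, against 6.80, 6.78, 6.53 and 6.78 in SLC. All LLC arrays were below all SLC arrays, by 1.15 (SE 0.13, adjusted p = 0.000422), or 2.22-fold lower in LLC, past the filter in 19 of 19 alternative settings. CTNND1, which codes for p120-catenin, was slightly lower in LLC, with 5.70, 5.90, 5.74 and 6.01 against 6.09, 6.33, 6.15 and 6.23 in SLC. The arrays were separated by a small margin, and the difference of -0.36 (SE 0.11, adjusted p = 0.0394) lost its call in 8 of 19 alternative settings.

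The alpha-catenin of most tissues, CTNNA1, differed little. It had 7.51, 7.59, 7.56 and 7.65 in LLC, against 7.48, 7.73, 7.70 and 7.62 in SLC, a difference of -0.05 (SE 0.10, 95% interval -0.27 to 0.16). Its other cluster gave -0.13 (95% interval -0.37 to 0.12). The beta-catenin gene CTNNB1 had 8.06, 8.01, 7.99 and 8.07 in LLC, against 8.20, 8.27, 8.26 and 8.32 in SLC. All 4 LLC arrays were lower, but the difference was small, at -0.23 (SE 0.09), and did not pass the test (adjusted p = 0.0926).

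The neural alpha-catenin CTNNA2 was higher in LLC, with 3.88, 2.76, 2.93 and 2.48 against 2.01, 1.66, 2.21 and 2.03 in SLC. SLC was at background on all arrays, and LLC replicate 1 was the highest array by 0.95. The difference was 1.04 (SE 0.27, adjusted p = 0.0212), at least 1.58-fold, and the call was lost in 5 of 18 alternative settings. With signals held at the limit the difference was 0.66 (adjusted p = 0.225, or 0.102 with only the members held at it). The neural delta-catenin CTNND2 had 3.56, 3.86, 2.64 and 2.83 in LLC, against 2.51, 2.61, 2.57 and 2.57 in SLC. All LLC arrays were higher, replicates 3 and 4 by little, and the adjusted p was 0.0871 (0.0487 without LLC replicate 4 and 0.0272 without LLC replicate 3). With any other array left out it was 0.1485 to 0.203, and with array weights 0.04445. CTNNA3, of heart muscle, was under the limit on all arrays, and CTNNBL1 differed by -0.17 (adjusted p = 0.460). Of 5 genes of a list of Schwann cells and neurons, none was called, with mean signals of 3.65 to 3.87 on the LLC arrays and 3.54 to 3.70 on the SLC arrays.

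Partners of cadherins at junctions were split as well. Of 27 measured genes, 4 were higher in LLC and 7 lower (14.8% and 25.9%, against 11.1% and 11.7% of all genes), with a median of -0.07. This list and those of related genes below were chosen with earlier results of these data known. Desmoplakin (DSP), which links desmosomes to intermediate filaments, had 4.23, 4.32, 3.38 and 3.50 in LLC, against 2.72, 2.15, 2.72 and 2.27 in SLC. The groups did not overlap, and the difference was 1.39 (SE 0.24, adjusted p = 0.00302). Plakophilin 2 (PKP2), its desmosomal partner, differed by 1.21 (SE 0.22, adjusted p = 0.00374), with all SLC arrays and LLC replicate 4 at background, hence at least 1.23-fold higher in LLC. PLEKHA7, which binds p120-catenin, differed by 0.92 (SE 0.17) and was at least 1.56-fold higher in LLC, and afadin (AFDN) was higher by 0.32 (SE 0.10).

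The 7 partners lower in LLC were led by alpha-actinin 1 (ACTN1), a crosslinker of actin filaments. It had 6.08, 6.65, 5.86 and 6.79 in LLC, against 8.01, 8.17, 8.19 and 8.48 in SLC. The difference was -1.87 (SE 0.21, adjusted p = 0.000398), or 3.65-fold. ACTN4 was lower by 1.11 (SE 0.17), the alpha-catenin-binding protein LIMA1 by 1.21 (SE 0.20) and vinculin (VCL), which was under the fold filter, by 0.88 (SE 0.16). NECTIN3, IQGAP1 and TJP1 were lower by 0.42, 0.42 and 0.40. ACTN1, ACTN4 and VCL also serve focal adhesions and stress fibres. The pericyte and smooth muscle list had a median of -1.10 over 9 genes. Its mean signals were 4.23 to 5.26 on the LLC arrays and 5.49 to 6.39 on the SLC arrays. Of its genes, TAGLN, CNN1, DES and ACTG2 were called lower in LLC, and RGS5, NOTCH3, CSPG4, MYH11 and MCAM were not called. The fibroblast list had a median of -2.06, with 9 of 10 genes lower in LLC. The part of these and the other lists lower in LLC was not tested.

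**Figure D4:**
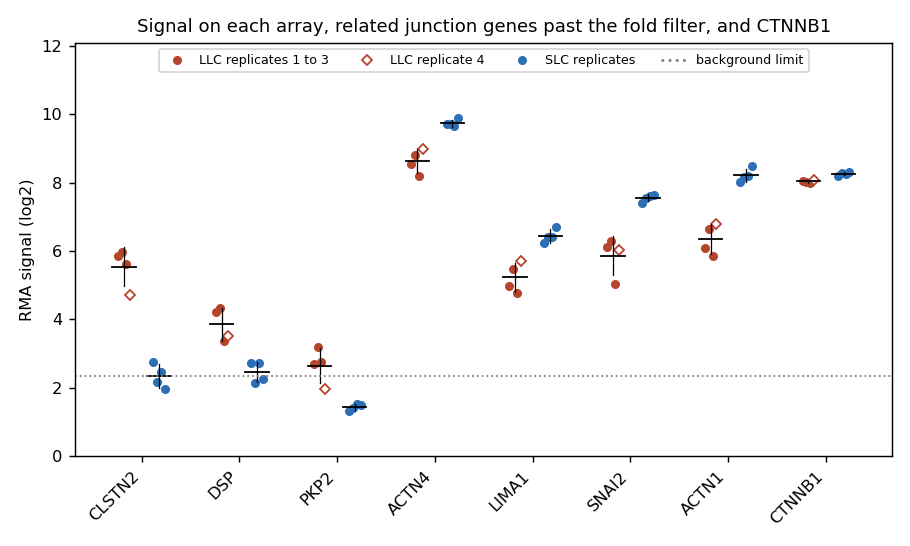
Log2 signal on each array for the 7 related genes that passed the fold filter, and for CTNNB1. Circles and open diamonds are single arrays, horizontal lines the means, vertical lines ± SD (n = 4), and the dotted line the background limit. CLSTN2, DSP and PKP2 are higher in LLC and ACTN4, LIMA1, SNAI2 and ACTN1 lower in LLC, without overlap between the groups.

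Of 14 measured genes of giant and atypical cadherins, 1 was higher in LLC and 1 lower, with a median of -0.13. That is 7.14% each, against 11.1% and 11.7% of all genes. CLSTN2, a calsyntenin with cadherin repeats, had 5.86, 5.98, 5.61 and 4.71 in LLC, against 2.75, 2.16, 2.47 and 1.96 in SLC. The groups stood far apart, and the difference was 3.21 (SE 0.27, adjusted p = 0.000116), larger than that of any of the 51 genes. As 2 of the SLC arrays were at background, its fold is approximate. CLSTN1 was lower in LLC by 0.54 (SE 0.12), FAT1 differed by -0.33 (adjusted p = 0.0602), and the rest, among them CELSR1, CELSR2, DCHS1 and FAT4, did not pass the test.

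The repressors of CDH1 transcription known from epithelial-mesenchymal transition were lower in LLC where they differed. Of 11 measured genes of a list of repressors and proteases, 5 were lower in LLC (45.5%, against 11.7% of all genes) and none was higher, with a median of -0.56. The list was chosen with earlier results of these data known, so this share is no independent support. Whether these genes bear on CDH1 was not tested. SNAI2 had 6.12, 6.28, 5.03 and 6.04 in LLC, against 7.41, 7.54, 7.62 and 7.65 in SLC, a difference of -1.69 (SE 0.24, adjusted p = 0.00123). TWIST1 was lower by 0.92 (SE 0.14), TCF4 by 0.90 (SE 0.23), SNAI1 by 0.88 (SE 0.23) and TWIST2, at background in both cell types, by 0.61 (SE 0.17). ZEB1 and ZEB2 differed by -0.56 and -0.50 with adjusted p of 0.0733 and 0.0734. These genes are also typical of fibroblasts, whose markers moved the same way, and their part was not tested.

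The LLC arrays did not hold these differences equally. For 10 of the 14 genes that differed, LLC replicate 4 was the LLC array nearest to the SLC mean, and for the other 4 it was LLC replicate 2. Over all 4114 genes that differed, replicate 4 was nearest for 57.1% and replicate 2 for 20.2%. On replicate 4 the large luteal cell markers averaged 8.43, against 9.01 to 9.28 on the other LLC arrays. Without it, 17 of the 51 genes were called, 14 of them the same genes, with CTNND2, PCDH15 and PCDH19 added. The share of all genes called without it is not given here, so the added calls cannot be read as particular to these genes.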

How the data were processed

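Per the labels and the study's methods, the authors processed the scanned arrays with RMA in Transcriptome Analysis Console 4.0 and deposited a log2 signal for each of 24415 transcript clusters on each array. These signals entered the fits without further normalization or filtering. The RMA version and the genome build are not given in the sources used here.

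In the platform annotation 18550 clusters had exactly 1 symbol, 595 several and 5270 none. The gene number of 50 of the 51 members was found in RefSeq (ARS-UCD2.0), with no change of symbol, and that table was used only for names and gene order.

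LLC minus SLC was fitted on all 8 arrays with limma 3.58.1 (R 4.3.3, moderated and two-sided, no replicate block), and p-values were adjusted by Benjamini-Hochberg over all clusters. The script was tested on simulated data. The 51 members, the gene lists and the alternatives were chosen with earlier results of these data known. Named genes were all members with an adjusted p under 0.05, CDH1, CDH2, CTNNA1, CTNND1, JUP, CTNNB1, the members of highest and lowest mean, and related genes past the fold filter. Others were named after their values had been seen. Marker lists covered granulosa, theca, steroidogenic, vascular and lymphatic endothelial, pericyte, fibroblast, macrophage, lymphocyte, neural and epithelial genes.

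The alternatives changed the normalization (quantile, or each array's median subtracted), the clusters tested (means above the 40th percentile), the floor (signals held at the background limit), the variance model (trend and robust, array weights, or no moderation), the block (replicate number), the arrays (each left out), the cluster per symbol (mean of all) or the family of the adjustment. Holding only the members at the limit was added after the data had been seen. The alternatives overlap and were not independent checks. None of the called genes had another cluster, so the mean of all clusters could not change their values. The limit left the values of CDH11, CDH13, JUP and PCDH1 as they were.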

Additional observations from a re-analysis of the deposited data

Results flagged for a closer look

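JUP was lower on SLC replicate 3, at 6.53, than on the other 3 SLC arrays, at 6.78 to 6.80. The gap was 0.926 of the whole range of the group. It was the only such gap in 38 groups of 4 arrays tested, where chance gives about 1 in 20, and the array still lay above all LLC arrays.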

How the results depend on the processing

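No called gene changed direction under any of the 19 alternatives that tested it. CDH1, CDH11, CDH13, JUP and PCDH1 kept their call in each. The share of all genes called under each alternative, the replicate block included, is not given here. The counts below therefore cannot be read as particular to these genes. With dim clusters left out, 24 of the 51 genes were tested, 3 were higher in LLC (3 past the fold filter), and the median was -0.18. With all signals held at the background limit, 1 was higher in LLC (1 past the fold filter), 5 were lower and the median was 0. Holding every dim cluster at a constant left 0.365 prior degrees of freedom for the variance, against 3.91 without it, and CDH2, CDH3 and PCDH12, which the limit did not touch, lost their calls. With only the members held at it, 3 were higher in LLC, 3 past the fold filter, and the median was 0. Without moderation, 2 were higher (2 past the fold filter) and 5 lower in LLC. Leaving out 1 array gave 3 to 7 genes higher in LLC (3 to 6 past the fold filter), 5 to 10 lower (3 to 4 past it) and medians of -0.054 to 0.003. The lowest of these counts, 3 higher, came without SLC replicate 2 or 4, and 5 lower without SLC replicate 4. Differences of 3 dim genes changed sign: CDH19 was -0.029 and CDH9 -0.038 with quantile normalization and CDH9 -0.011 with array weights, and with 1 array left out CDH19 ranged from -0.042 to 0.101, CDH9 from -0.038 to 0.079 and PCDHB1 from -0.082 to 0.005.

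The labels do not say whether equal replicate numbers mark 1 cow, and with 4 arrays per cell type the following values cannot decide it. Deviations of same-numbered LLC and SLC arrays from their group means correlated at -0.13, -0.07, 0.17 and 0.01, and 1 of 4 LLC arrays correlated best with its own number. With the replicate block, 5 members were higher and 8 lower in LLC, with CTNND1 the call lost, 5 and 3 past the fold filter, and the median was -0.03.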

Other observations

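Of 6 measured lymphatic endothelial markers, 1 (FLT4) was lower in LLC, and the list had a mean signal of 6.65 on LLC replicate 4 and 4.58 to 5.25 on the other LLC arrays, against 5.91 to 7.27 on the SLC arrays. Of 8 lymphocyte markers, NKG7 and IL7R were lower in LLC, and 4 lay under the background limit on all 8 arrays.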
